A study of Mus musculus with 2 samples.

Results

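The wound-associated keratins Krt6a, Krt6b, Krt16 and Krt17, 4 of the 32285 genes in the files, were followed in epithelial cells of mouse cornea and limbus. They were selected on summed UMI counts of these same cells, in which Krt17 had been far more abundant, and Krt6a and Krt6b less abundant, in the library labelled Pax6 heterozygous. The levels in each library are therefore descriptions and carry no test. The study collected single-cell transcriptomes with the 10x Genomics system from mice labelled Pax6 +/- and from wild-type (wt) mice, with 1 library per genotype. The series description names 2 mice per genotype, and pooling is not stated. Strain, age, sex and the Pax6 allele are not given in the labels. In both groups the lens, retina, iris and most of the conjunctiva had been dissected away, and the tissue had been digested to single cells. Epithelial cells were those with at least 30 UMIs (unique molecular identifiers, each counting 1 captured transcript) of Krt5, Krt14 and Krt15 per 10000. This left 6796 of 9542 kept cells in the library labelled Pax6 heterozygous and 8552 of 10154 in the wild-type library. Values are CPM, UMIs of a gene scaled to 1000000 UMIs of the summed cells, ratios are heterozygous over wild type with exact 95% intervals, and those intervals cover counting error only. No spread between mice could be given.

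Keratins form filaments only as pairs of a type II and a type I chain. Krt6a and Krt6b encode type II chains, and Krt16 and Krt17 encode type I chains that can pair with them. In skin and other stratified epithelia these genes are known for their rapid induction at wound edges and in activated or hyperproliferating keratinocytes, and they are also used by some uninjured epithelia such as oral mucosa and hair follicle. In the eye, Krt12 marks differentiated corneal epithelium, Krt4 and Krt13 mark conjunctival and other mucosal epithelium, Gpha2 marks a limbal epithelial population, and Krt5 and Krt14 are the common basal pair.

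The 4 genes lie as neighbouring pairs on the minus strand of GRCm38. Krt6a (ENSMUSG00000058354) spans chromosome 15, 101689910 to 101694307, with 9 exons, and Krt6b (ENSMUSG00000023041) spans 101676023 to 101680287, also with 9 exons, 9622 bases away. Krt16 (ENSMUSG00000053797) spans chromosome 11, 100246091 to 100248902, and Krt17 (ENSMUSG00000035557) spans 100256217 to 100261029, with 8 exons each and 7314 bases between them. The Krt6a and Krt6b coding sequences were 97.8% identical and their 3′ untranslated regions 78.9% identical. The end of the coding sequence is shown because it is where the close copies meet their more divergent 3′ ends, with the 3 differing bases in capitals (GENCODE M21, coding strand, stop codon included).
Krt6a: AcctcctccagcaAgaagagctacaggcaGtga
Krt6b: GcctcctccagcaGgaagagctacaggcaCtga
Which end of the transcripts the kit captured is not stated in the labels. In the last 500 bases of the transcripts, none of the 451 windows of 50 bases of Krt6a or of Krt6b was found in another gene. Krt16 and Krt17 were 77.5% identical in coding sequence and 65.1% in the 3′ untranslated region. Of the 451 windows, 76 (16.9%) of Krt16 occurred in Krt14, Krt17 or the gene Gm11597, and 43 (9.53%) of Krt17 occurred in Krt14 or Krt16. How the authors' counting treated reads that fit several genes is not given in the sources used here.

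Pax6, the gene named in the genotype, went against the direction of the label, with 743 CPM in epithelial cells labelled Pax6 heterozygous and 372 CPM in wild-type epithelial cells, a ratio of 2.00 (1.98 to 2.02). A UMI count does not tell a mutant from a normal transcript. Epithelial cells had a median of 14175 UMIs in the library labelled Pax6 heterozygous and 11294 in wild type. The library labelled Pax6 heterozygous held 3376 Xist-only epithelial cells (Xist UMIs without Y-linked ones) and 2485 Y-only ones, whereas wild type held 8156 Xist-only and 0 Y-only cells, so sex differed between the libraries. The files shared 40 barcodes, 22 of them epithelial in both. Markers of endothelial, mural, Schwann, immune and stromal keratocyte cells were above 0 for every gene in both libraries' epithelial cells. Their summed levels in epithelial cells were 3.89 to 248 CPM per list in the library labelled Pax6 heterozygous and 2.53 to 123 CPM in wild type. Leaving out the 128 heterozygous-labelled and 66 wild-type epithelial cells with such markers gave log2 ratios of -0.89 for Krt6a, -1.33 for Krt6b, -0.997 for Krt16 and 6.01 for Krt17. Between 0.5 and 2 times the basal keratin limit lay 661 heterozygous-labelled and 3608 wild-type cells, and with a limit of 60 in place of 30 the log2 ratio was -1.22 for Krt6a and 5.70 for Krt17.

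Krt17 and the Krt6 pair differed between the libraries in opposite directions. Krt17 stood at 1212 CPM (125422 UMIs) in epithelial cells of the library labelled Pax6 heterozygous, against 18.9 CPM (2099 UMIs) in wild type, a ratio of 64.3 (61.6 to 67.1). Krt6a stood at 1023 CPM in the library labelled Pax6 heterozygous and 1908 CPM in wild type, a ratio of 0.536 (0.532 to 0.540). Krt6b stood at 590 CPM in the library labelled Pax6 heterozygous and 1491 CPM in wild type, a ratio of 0.396 (0.392 to 0.400). Krt16, the type I neighbour of Krt17, followed the Krt6 pair and not Krt17. It stood at 306 CPM in the library labelled Pax6 heterozygous and 619 CPM in wild type, a ratio of 0.494 (0.488 to 0.501). By a limit of 2-fold, 1 of the 4 members was higher, as were 13.2% of the 7092 genes that reached 20 CPM in 1 library or both, and 2 of the 4 were lower, as were 6.44% of those genes. These values chose the members, so nothing is read from the counts. The median log2 ratio over the 7092 genes was 0.17, so the members' ratios stand against a slightly higher background. The Krt6a and Krt16 ratios lie close to the limit: over 16 alternative settings Krt6a was at least 2-fold lower in 5 and Krt16 in 9, with log2 ratios of -1.23 to -0.66 and -1.505 to -0.68. Krt6b was at least 2-fold lower and Krt17 at least 2-fold higher in all 16. Fewer cells with a transcript and less transcript per cell cannot be told apart in such sums, so the distribution over cells was examined next.

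Krt17 was spread over most heterozygous-labelled epithelial cells, while most UMIs of the other members lay in 10% of the cells of either library. The median epithelial cell held 5.83 Krt17 UMIs per 10000 in the library labelled Pax6 heterozygous and 0 in wild type, and the 90th percentile was 27.3 in the library labelled Pax6 heterozygous and 0 in wild type. For Krt6a the median was 0.661 per 10000 in the library labelled Pax6 heterozygous and 1.42 in wild type, with 90th percentiles of 23.8 in the library labelled Pax6 heterozygous and 46.4 in wild type. The median was 0 in both libraries for Krt6b and for Krt16. The tenth of epithelial cells with the most UMIs of a gene held 48.2% of all Krt17 UMIs in the library labelled Pax6 heterozygous, but 70.5% of Krt6a, 88.3% of Krt6b and 91.3% of Krt16 UMIs. In wild type the corresponding shares were 100% for Krt17, 72.1% for Krt6a, 86.9% for Krt6b and 83.3% for Krt16. Krt6b and Krt16 were thus carried by a minority of cells in both libraries, and wild-type Krt17 by fewer than 1 in 10.

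After each cell had been thinned to 5000 UMIs, which left out 858 heterozygous-labelled and 1608 wild-type cells, Krt17 was found in 78.0% (77.0 to 79.1) of 5938 epithelial cells of the library labelled Pax6 heterozygous and in 3.73% (3.30 to 4.203) of 6944 in wild type. Krt6a was found in 46.0% of the heterozygous-labelled cells and 52.9% of the wild-type cells. Krt6b was found in 24.8% of the heterozygous-labelled cells and 36.6% of the wild-type cells, and Krt16 in 19.9% of the heterozygous-labelled cells and 29.95% of the wild-type cells. Unthinned, the shares in heterozygous-labelled cells were 54.6% for Krt6a, 31.3% for Krt6b, 25.6% for Krt16 and 83.9% for Krt17. Unthinned wild-type cells gave 61.9% for Krt6a, 44.7% for Krt6b, 35.1% for Krt16 and 5.72% for Krt17. Vessel, mural, Schwann and immune cells (non-epithelial cells), which should lack these keratins, served as a comparison for free RNA. Their shares at 5000 UMIs were 4.52% for Krt6a, 3.05% for Krt6b, 1.58% for Krt16 and 4.86% for Krt17 among 884 such cells of the library labelled Pax6 heterozygous. Among the 63 such wild-type cells they were 12.7% for Krt6a, 4.76% for Krt6b, 11.1% for Krt16 and 1.59%, or 1 cell, for Krt17. Before thinning, median depths in these non-epithelial cells were 6366 UMIs in the library labelled Pax6 heterozygous and 3591.5 in wild type. The interval of that single wild-type cell (0.0402% to 8.53%) takes in the 3.73% of wild-type epithelial cells. A Krt17 share above that of non-epithelial cells was thus not detectable there over all epithelial cells. In summed levels, epithelial over non-epithelial ratios in the library labelled Pax6 heterozygous were 104 for Krt6a, 83.9 for Krt6b, 108 for Krt16 and 98.7 for Krt17. In wild type they were 31.7 for Krt6a, 35.4 for Krt6b, 17.1 for Krt16 and 18.8 (3.37 to 744) for Krt17. By summed level each member was thus higher in epithelial than in non-epithelial cells of both libraries. The wild-type Krt17 ratio rests on 1 UMI in non-epithelial cells. These cells were also chosen for low basal keratin. Without that limit, Krt17 shares at 5000 UMIs were 7.56% of 926 cells in the library labelled Pax6 heterozygous and 1.47% of 68 in wild type. The part of free RNA was not tested.

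Epithelial cells were then split by whether Krt12 reached 20 UMIs per 10000, Krt13 20, Krt4 5 and Gpha2 3. Of the 16 combinations, 6 held at least 50 cells in the library labelled Pax6 heterozygous and covered 97.3% of its epithelial cells, and 4 did so in wild type and covered 98.5%. The composition differed widely. Cells with only Gpha2 (2177) and cells with none of the 4 markers (2163) were the largest sets in the library labelled Pax6 heterozygous, followed by Krt4 only (931), Krt13 with Krt4 (740), Krt12 only (481) and Krt4 with Gpha2 (120). Krt12-only cells (7648) made up most of the wild-type library, followed by Krt12 with Krt13 (373), Krt12 with Gpha2 (283) and Gpha2 only (123). Krt12-only and Gpha2-only cells were thus the exact combinations with at least 50 cells in both libraries. Krt12 itself averaged 1661 CPM in the wild-type non-epithelial cells, not far under the limit that makes a cell Krt12-high, and 24.7 CPM in those of the library labelled Pax6 heterozygous.

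Among these combinations, Krt6a and Krt6b had their highest levels in the Krt13 sets and their lowest in the Gpha2-only sets of both libraries. Krt6a stood at 3324 CPM in the Krt13 with Krt4 cells of the library labelled Pax6 heterozygous, 1301 CPM in Krt4-only, 795 CPM in Krt12-only, 630 CPM in Krt4 with Gpha2, 342 CPM in cells with none of the markers and 84.6 CPM in Gpha2-only cells. In wild type Krt6a stood at 6513 CPM in Krt12 with Krt13 cells, 1457 CPM in Krt12-only, 343 CPM in Krt12 with Gpha2 and 136 CPM in Gpha2-only cells. Each step down in these orders was larger than its counting interval, which leaves out the spread between cells. The last steps were less apart by the mean over cells. Krt4 with Gpha2 cells of the library labelled Pax6 heterozygous averaged 3.35 Krt6a UMIs per 10000, and its unmarked cells averaged 2.81. Krt6b followed the same order of sets, between 2428 and 17.2 CPM in the library labelled Pax6 heterozygous and between 7453 and 46.3 CPM in wild type. In the Krt13 with Krt4 cells of the library labelled Pax6 heterozygous, the median cell held 27.9 Krt6a and 16.3 Krt6b UMIs per 10000. In the wild-type Krt12 with Krt13 cells the medians were 61.9 Krt6a and 72.2 Krt6b UMIs per 10000, and 100% and 99.7% of the cells held a UMI. Among these combinations, the set with high Krt13 thus had the highest Krt6 levels in each library. Its companion marker was Krt4 in the library labelled Pax6 heterozygous and Krt12 in wild type. The wild-type set held 36834 CPM of Krt12, above the 30207.5 CPM of wild-type Krt12-only cells, and 109 CPM of Krt14. The set of the library labelled Pax6 heterozygous held 24.2 CPM of Krt12 and 3372 CPM of Krt14. The Krt13 sets thus differed in other keratins, and whether they are the same cell type was not tested. Most wild-type Krt6 UMIs lay outside Krt13-high cells, which held 32.4% of Krt6a and 48.2% of Krt6b UMIs.

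Krt17 was high in every set of the library labelled Pax6 heterozygous and followed another order. It stood at 1518 CPM in cells with none of the markers, 1193 CPM in Krt4-only, 1163 CPM in Gpha2-only, 1126 CPM in Krt13 with Krt4, 1073 CPM in Krt4 with Gpha2 and 653 CPM in Krt12-only cells of that library. The intervals of Krt13 with Krt4 (1109 to 1142) and Krt4 with Gpha2 (1025 to 1123) overlapped, so their order is not resolved. In wild type Krt17 stood at 309 CPM (278 to 342) in Gpha2-only cells, 87.2 CPM in Krt12 with Gpha2, 12.5 CPM in Krt12 with Krt13 and 8.21 CPM in Krt12-only cells. Among the 4 wild-type combinations with at least 50 cells, Krt17 was thus highest in the set with the lowest Krt6a and Krt6b. That order did not hold outside them, since the 106 wild-type Krt4-high cells, taken over all combinations, held 252 CPM of Krt17 beside 5417 CPM of Krt6a. In the 123 wild-type Gpha2-only cells 59.3% held a Krt17 UMI and the median was 1.06 per 10000, while wild-type non-epithelial cells held 1.00 CPM (1 UMI). Krt14, with which Krt17 shares some 3′ windows, stood at 6419 CPM in the Gpha2-only cells of the library labelled Pax6 heterozygous and 6056 CPM in those of wild type, while Krt17 in the same cells differed by a ratio of 3.76. Elsewhere Krt14 was not alike, with a ratio of 5.12 over all epithelial cells. In Krt12-only cells it stood at 3780 CPM in the library labelled Pax6 heterozygous and 932 CPM in wild type. The part of shared reads in the Krt17 counts was not tested.

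Krt16 kept to neither pattern. In the library labelled Pax6 heterozygous it was highest in Krt12-only cells at 931 CPM, then 553 CPM in Krt13 with Krt4, 397 CPM in Krt4-only, 155 CPM in unmarked, 60.2 CPM in Gpha2-only and 50.7 CPM in Krt4 with Gpha2 cells, the last pair with overlapping intervals. In wild type it was highest in Krt12 with Krt13 cells at 1485 CPM, then 519 CPM in Krt12-only, 308 CPM in Krt12 with Gpha2 and 183 CPM in Gpha2-only cells. It shared its low level in Gpha2-only cells with the Krt6 pair in both libraries, and differed from that pair in its place in heterozygous-labelled Krt12 cells.

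**Figure D1:**
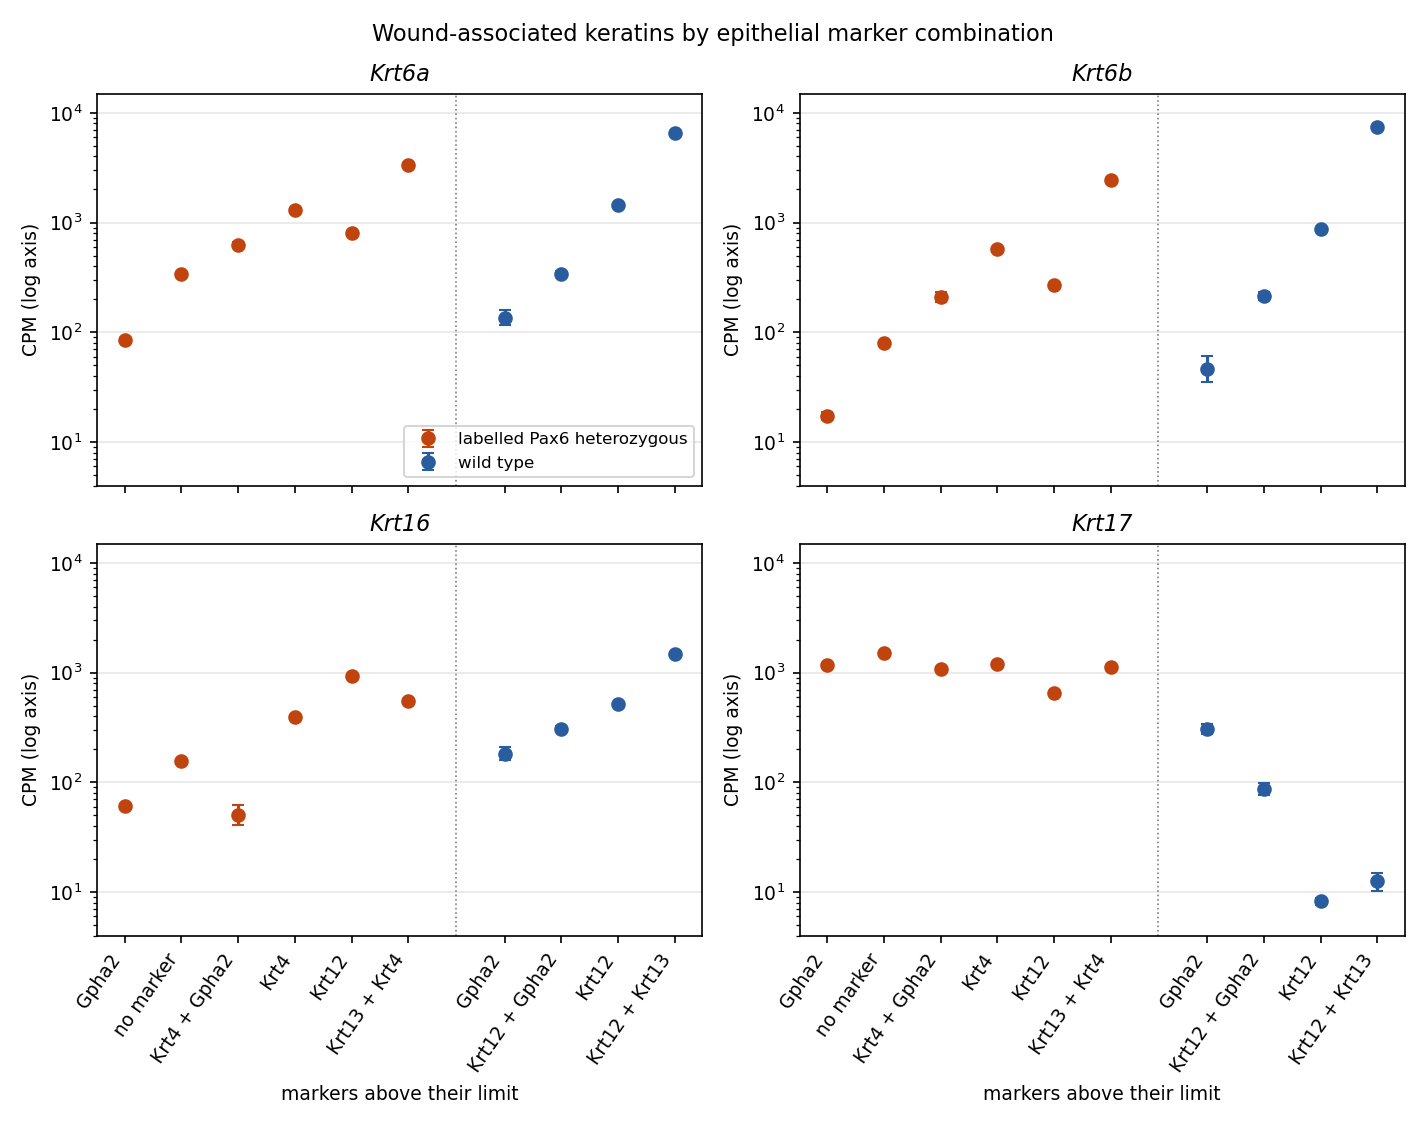
CPM (log axis) of each member in the marker combinations with at least 50 cells, library labelled Pax6 heterozygous at left and wild type at right of the dotted line; bars are exact 95% Poisson intervals for counting error. Krt6a and Krt6b are lowest in Gpha2-only and highest in Krt13 cells of both libraries, while Krt17 stays between 653 and 1518 CPM in the library labelled Pax6 heterozygous and is at 8.21 CPM in wild-type Krt12-only cells.

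Splits by a single marker gave the separation its size. Krt13-high cells of the library labelled Pax6 heterozygous (858) held 3210 CPM of Krt6a against 494 CPM in its Krt13-low cells (5938), a ratio of 6.496 (6.42 to 6.58). Krt6b differed between the same cells by a ratio of 12.9, Krt16 by 2.34 and Krt17 by 0.911 (0.898 to 0.925), so 3 members were at least 2-fold higher, as were 7.4% of 7153 genes, and 0 at least 2-fold lower, as were 14% of genes. Wild-type Krt13-high (431) over Krt13-low cells (8121) gave ratios of 4.54 for Krt6a, 8.83 for Krt6b, 2.95 for Krt16 and 2.43 for Krt17. All 4 members were at least 2-fold higher there, as were 7.88% of 6361 genes, while 25.2% of genes were lower. The Krt17 level was 40.4 CPM in those 431 wild-type Krt13-high cells but 12.5 CPM in the 373 of them that held Krt12 and Krt13 alone. Krt13-high cells were 12.6% of epithelial cells in the library labelled Pax6 heterozygous and held 61.1% of its Krt6a, 75.7% of its Krt6b, 36.1% of its Krt16 and 18.0% of its Krt17 UMIs, beside 19.5% of all its UMIs. In wild type they were 5.04% of cells and held 32.4% of Krt6a, 48.2% of Krt6b, 23.7% of Krt16 and 20.4% of Krt17 UMIs, beside 9.53% of all UMIs. Krt17 UMIs of the library labelled Pax6 heterozygous were thus no more frequent in Krt13-high cells than UMIs at large.

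Gpha2-high over Gpha2-low cells gave the opposite direction for the Krt6 pair and a library-dependent one for Krt17. In the library labelled Pax6 heterozygous (2375 over 4421 cells) the ratio was 0.189 for Krt6a, 0.115 for Krt6b, 0.169 for Krt16 and 0.936 (0.925 to 0.948) for Krt17. In wild type (420 over 8132 cells) it was 0.200 for Krt6a, 0.145 for Krt6b, 0.514 for Krt16 and 13.0 (11.9 to 14.2) for Krt17. At least 2-fold lower were 3 members in the library labelled Pax6 heterozygous and 2 in wild type, against 4.45% and 3.94% of genes. At least 2-fold higher were 0 members in the library labelled Pax6 heterozygous and Krt17 in wild type, against 2.8% and 5.68% of genes. Gpha2-high cells held 30.8% of Krt17 UMIs in the library labelled Pax6 heterozygous, where they were 34.9% of cells. They held 35.0% of Krt17 UMIs in wild type, where they were 4.91% of cells.

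Krt4-high cells resembled Krt13-high cells in the library labelled Pax6 heterozygous, where Krt4-high over Krt4-low ratios were 7.40 for Krt6a, 16.1 for Krt6b, 2.14 for Krt16 and 0.900 for Krt17. At least 2-fold higher were 3 members there, against 6.95% of genes, and 0 lower, against 8.86%. The 106 wild-type Krt4-high cells held all 4 members at higher levels than the rest, with ratios of 2.95 for Krt6a, 4.35 for Krt6b, 3.40 for Krt16 and 17.8 for Krt17, and 6.26% of genes were at least 2-fold higher there and 14% lower. A split by Krt12 barely moved the Krt6 pair, with Krt12-high over Krt12-low ratios of 1.16 for Krt6a and 1.05 for Krt6b in the library labelled Pax6 heterozygous, and 1.21 for Krt6a and 0.750 for Krt6b in wild type. It moved Krt16 in the library labelled Pax6 heterozygous, by a ratio of 4.02 (3.92 to 4.12), against 1.02 in wild type, and in the library labelled Pax6 heterozygous 3.06% of genes passed 2-fold upwards and 4.47% downwards. For Krt17 the Krt12-high over Krt12-low ratio was 0.504 in the library labelled Pax6 heterozygous and 0.0317 in wild type, where 4.49% of genes passed 2-fold upwards and 8.7% downwards.

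Finer bins showed gradients and not single steps. With Krt13 at 0, above 0 to 5, 5 to 20, 20 to 100 and 100 or more UMIs per 10000, Krt6a in the library labelled Pax6 heterozygous was 171, 551, 1473, 2770 and 5371 CPM. Krt6b over the same bins was 42.9, 174, 656, 1866 and 4400 CPM, and Krt17 was 1176, 1366, 1126, 1141 and 1042 CPM. The summed Krt17 level stayed within a narrow band, while Krt6b had the largest ratio between the last and first bin. The distribution of Krt17 over cells was not as even. Krt13-high cells of this library had a Krt17 median of 2.68 per 10000 and a 90th percentile of 31.2. Its Krt13-low cells had a median of 6.29 and a 90th percentile of 27.1. In wild type Krt6a was 553, 2389, 4981, 6470 and 6636 CPM and Krt17 was 14.1, 20.7, 23.7, 38.1 and 87.2 CPM, the last bin holding 26 cells. Wild-type Krt6a differed little between the last bins, whereas heterozygous-labelled Krt6a did not level off. Over Gpha2 bins of 0, above 0 to 1, 1 to 3, 3 to 10 and 10 or more per 10000, Krt6a in the library labelled Pax6 heterozygous was 1716, 1489, 655, 319 and 113 CPM. Krt17 over these bins was 1043, 1419, 1434, 1240 and 951 CPM in the library labelled Pax6 heterozygous and 7.41, 21.2, 40.7, 111 and 247 CPM in wild type. In these summed levels the wild-type Krt17 gradient with Gpha2 had no counterpart in the library labelled Pax6 heterozygous. By share of cells the libraries had the same direction. Unthinned, 91.7% of heterozygous-labelled Gpha2-high cells held Krt17 (median 6.86 per 10000), against 79.6% of Gpha2-low cells (median 5.15). In wild type 32.9% of Gpha2-high and 4.32% of Gpha2-low cells did.

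**Figure D2:**
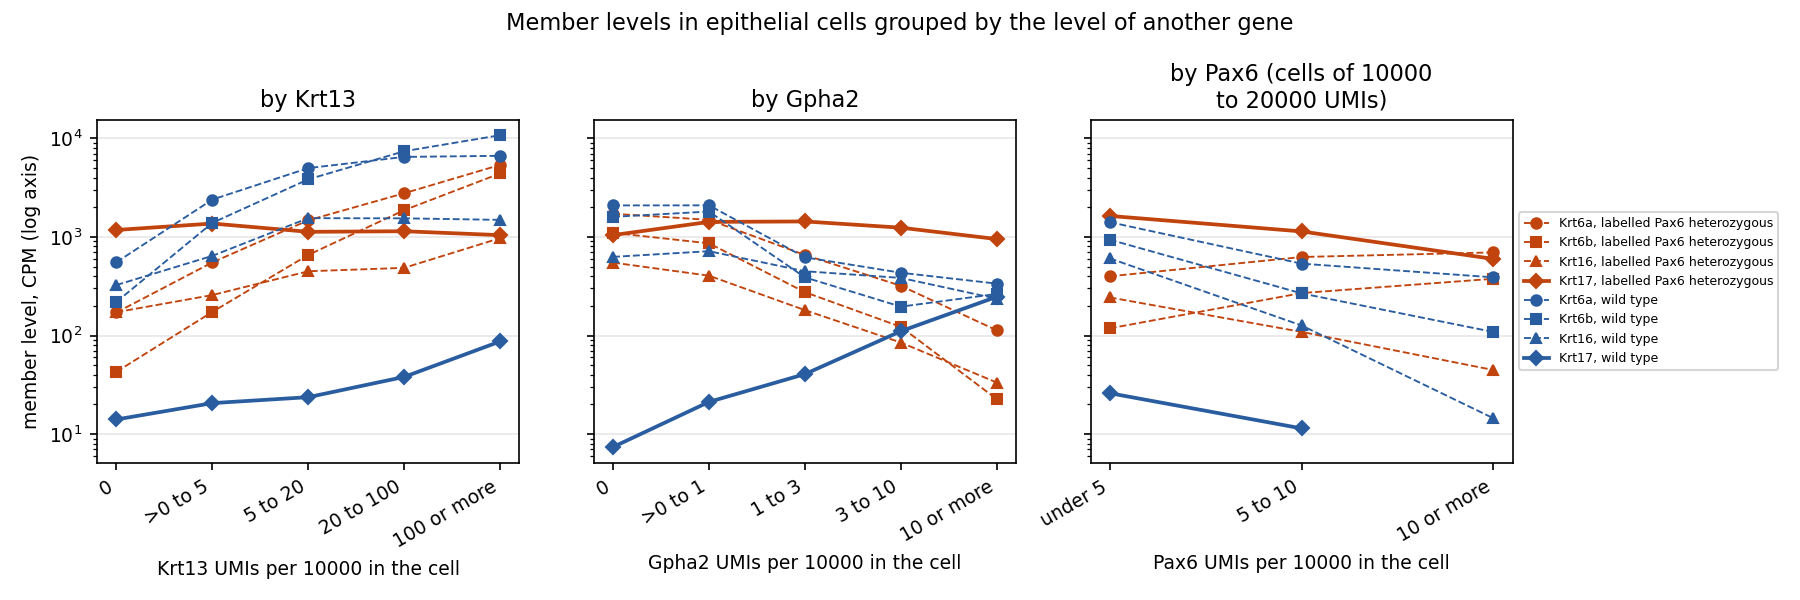
CPM (log axis) of each member in epithelial cells binned by Krt13, by Gpha2 and, in cells of 10000 to 20000 UMIs, by Pax6 (UMIs per 10000), with the library labelled Pax6 heterozygous in red and wild type in blue; solid lines are Krt17, and a level of 0 is not drawn. Krt17 in the library labelled Pax6 heterozygous lies between 1042 and 1366 CPM across Krt13 bins in which Krt6a runs between 171 and 5371 CPM.

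Ratios within cells of the same marker class are given next, with opposite directions for Krt17 and the Krt6 pair. The classes are parts of the cells whose sums chose the members. Their directions are therefore no separate support, and nothing is read from the counts of members. In Krt12-only cells (481 heterozygous-labelled and 7648 wild-type) the ratio was 79.6 (73.8 to 85.9) for Krt17, 0.546 for Krt6a, 0.309 for Krt6b and 1.79 (1.75 to 1.84) for Krt16. There 1 member was at least 2-fold higher and 1 lower, against 9.22% and 5.63% of genes. In Gpha2-only cells (2177 heterozygous-labelled and 123 wild-type) it was 3.76 (3.39 to 4.19) for Krt17, 0.624 (0.531 to 0.738) for Krt6a, 0.371 for Krt6b and 0.329 for Krt16, with 1 member higher and 2 lower by 2-fold, against 7.65% and 4.18% of genes. The Krt17 difference was thus much smaller among Gpha2-only cells than among Krt12-only cells, and Krt16 had opposite directions in the pair of sets. In Krt13-high cells (858 heterozygous-labelled and 431 wild-type) the ratios were 0.496 for Krt6a, 0.304 for Krt6b, 0.369 for Krt16 and 27.9 for Krt17, with 1 member higher and 3 lower, against 22.4% and 7.07% of genes. Among Krt4-high cells (1904 heterozygous-labelled and 106 wild-type) they were 0.423 for Krt6a, 0.243 for Krt6b, 0.231 for Krt16 and 4.50 for Krt17, with 1 higher and 3 lower, against 16.9% and 4.77% of genes. In Krt12-low cells (6215 heterozygous-labelled and 176 wild-type) they were 0.638 for Krt6a, 0.297 for Krt6b, 0.387 for Krt16 and 3.29 for Krt17, with 1 higher and 2 lower, against 5.9% and 3.34% of genes. These classes share marker limits and are not matched in other respects. Krt14 in Krt12-only cells stood at 3780 CPM in the library labelled Pax6 heterozygous and 932 CPM in wild type. In Gpha2-only cells, Gpha2 stood at 948 CPM in the library labelled Pax6 heterozygous and 2544 CPM in wild type, and Krt12 at 28.0 CPM in the library labelled Pax6 heterozygous and 802 CPM in wild type. Median depth in Krt12-only cells was 16696 UMIs in the library labelled Pax6 heterozygous and 11159.5 in wild type. The part of these differences in the ratios was not tested.

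The members also differed between cells of different sex within the library labelled Pax6 heterozygous. Y-only over Xist-only cells gave ratios of 0.691 for Krt6a, 0.657 for Krt6b, 0.565 for Krt16 and 1.24 for Krt17, none of them 2-fold, against 0.188% of genes at least 2-fold higher and 0.636% lower. Xist-only heterozygous-labelled cells set against the Xist-bearing wild-type library gave 0.632 for Krt6a, 0.475 for Krt6b, 0.624 for Krt16 and 58.2 (55.7 to 60.8) for Krt17. The Krt16 ratio of that sex-matched comparison is nearer to 1 than the ratio between the sexes, and the Krt6a ratios of the comparisons are close. Y-only cells gave 0.437 for Krt6a, 0.312 for Krt6b, 0.352 for Krt16 and 72.1 for Krt17. At least 2-fold lower were therefore 1 member with Xist-only cells and 3 with Y-only cells, against 5.66% and 7.55% of genes, and Krt17 was higher with both, against 13.4% and 13.1% of genes. The labels do not tie these cells to mice, so sex and mouse cannot be told apart.

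**Figure D3:**
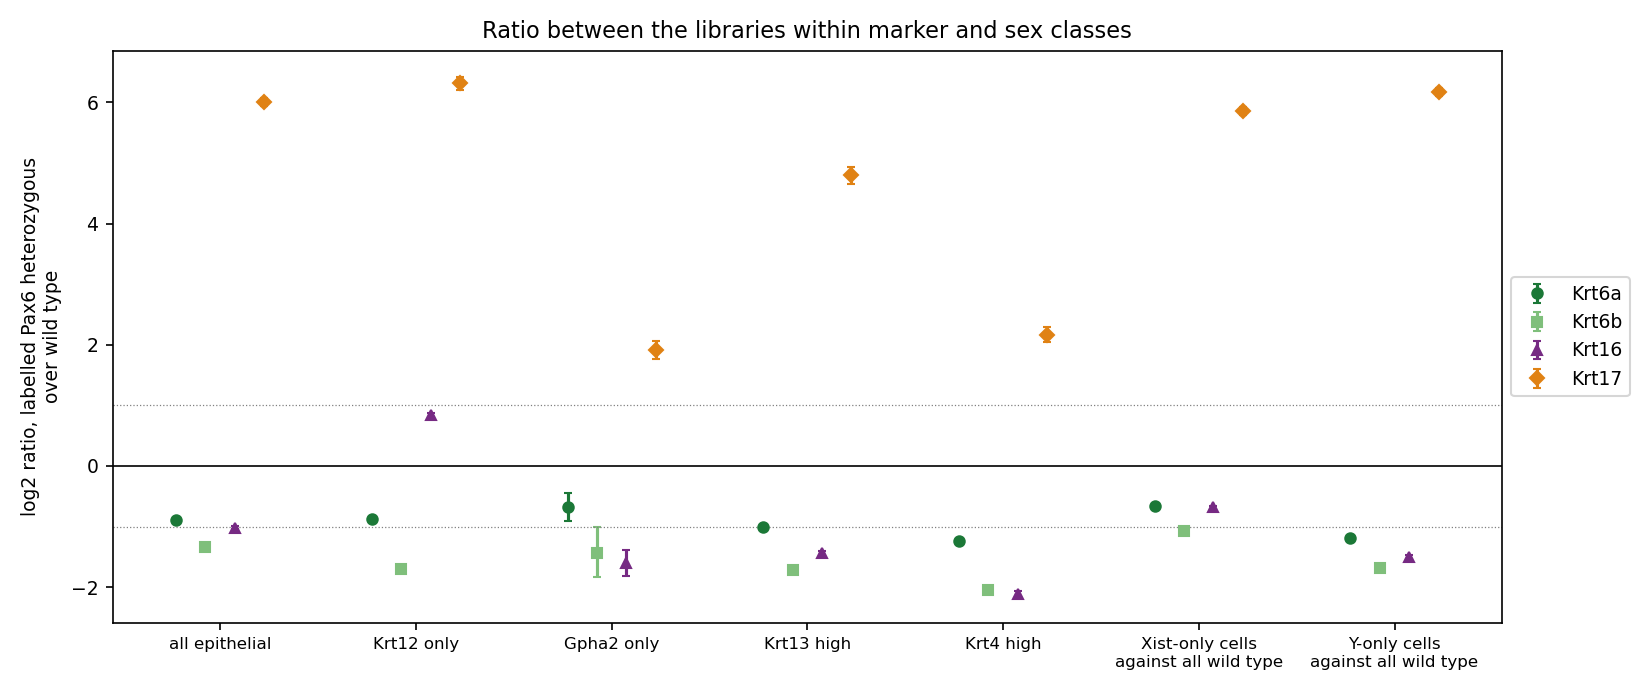
Log2 ratio (heterozygous-labelled over wild-type CPM) of each member in epithelial cells of the same marker class or sex class, with exact 95% intervals for counting error and dotted lines at 2-fold. Krt17 is positive in all 7 sets and Krt6a and Krt6b negative in all 7, while Krt16 is positive in Krt12-only cells (0.84). These sets are the cells whose sums chose the members, or parts of them, and do not repeat the result.

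Within cells, Krt6a and Krt6b were often found together, while Krt17 was found in most heterozygous-labelled cells with Krt6a and in most without. At 5000 UMIs, Krt6b was found in 49.2% of heterozygous-labelled cells with Krt6a and in 4.02% of those without, and in 59.8% of wild-type cells with Krt6a and 10.5% of those without. Krt17 was found in 74.8% (73.1 to 76.4) of heterozygous-labelled cells with Krt6a and in 80.8% (79.4 to 82.2) of those without. For wild-type cells the Krt17 shares were 3.78% with Krt6a and 3.67% without. Krt16, the other type I member, was found in 22.0% of heterozygous-labelled cells with Krt17 and in 12.4% of those without, and in 56.0% of 259 wild-type cells with Krt17 and 28.9% of those without. Cells of 1 library share its source and depth, so these shares describe the libraries. In the heterozygous-labelled Gpha2-only cells the association of Krt17 with Krt6a ran the other way, with Krt17 in 94.1% of 321 cells with Krt6a and 83.7% of 1703 cells without.

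Pearson coefficients of log UMIs per 10000 across the 6796 heterozygous-labelled and 8552 wild-type epithelial cells gave the same picture. They describe cells of a library that were not thinned and so differ in depth, and the part of depth was not tested. For Krt6a with Krt6b the coefficient was 0.745 in the library labelled Pax6 heterozygous and 0.808 in wild type, and for Krt6a with Krt16 it was 0.344 in the library labelled Pax6 heterozygous and 0.355 in wild type. For Krt17 in the library labelled Pax6 heterozygous it was 0.0053 with Krt6a and -0.150 with Krt6b, and in wild type it was 0.027 with Krt6a and 0.0071 with Krt6b. Among the marker keratins, Krt6a went with Krt13 (0.748 in the library labelled Pax6 heterozygous and 0.620 in wild type) and Krt17 with the basal keratin Krt14 (0.423 in the library labelled Pax6 heterozygous and 0.199 in wild type). Krt6b had negative coefficients with Krt14 (-0.521 in the library labelled Pax6 heterozygous and -0.358 in wild type). Krt14 is part of the sum that chose the epithelial cells, and it shares some 3′ windows with Krt17. The part of either in the Krt14 coefficients was not tested. Within the heterozygous-labelled Krt13 with Krt4 cells, thinned to 5000 UMIs (654 cells), Krt17 had a coefficient of 0.344 with Krt6a and -0.103 with Krt6b, so the Krt6 genes themselves differed in their relation to Krt17 there.

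**Figure D4:**
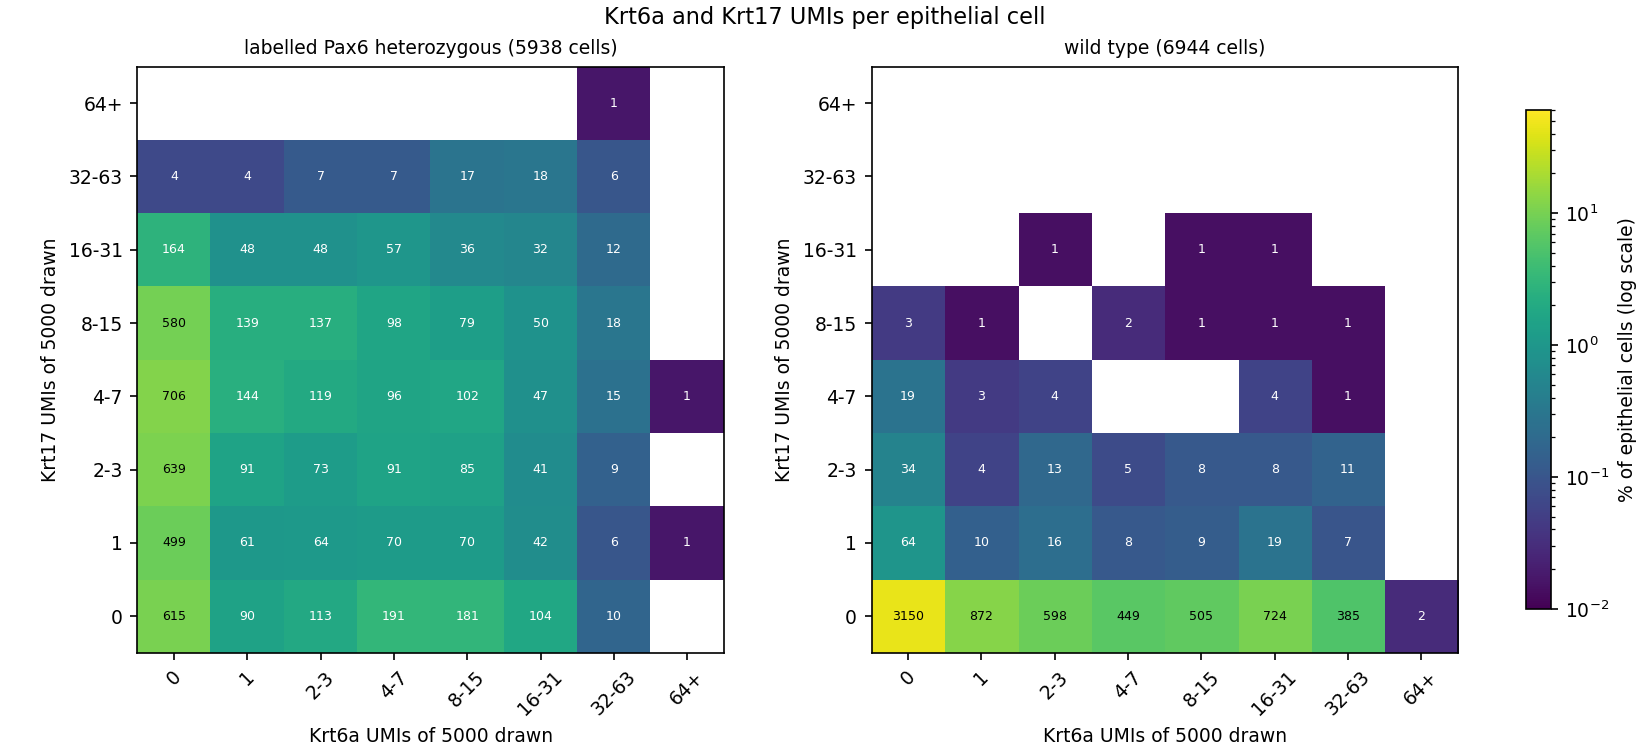
Number of epithelial cells by Krt6a UMIs (x axis) and Krt17 UMIs (y axis) of 5000 drawn per cell, in the library labelled Pax6 heterozygous (left) and wild type (right); colour is the percentage of cells on a log scale. Neither transcript was drawn in 615 heterozygous-labelled and 3150 wild-type cells, and most wild-type cells lie in the row with no Krt17 UMI.

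The genes most like each member were taken as the 5 with the highest coefficient among genes with at least 50 CPM, 3601 in the library labelled Pax6 heterozygous and 3285 in wild type. For Krt6a they were Pdzk1ip1 (0.754), Krt13, Gsto1, Calml3 and Lypd3 in the library labelled Pax6 heterozygous, and Mal (0.753), Hopx, Pdzk1ip1, Gsto1 and Akr1b7 in wild type. For Krt6b they were Hopx (0.798), Pdzk1ip1, Upp1, Muc4 and Arg1 in the library labelled Pax6 heterozygous, and Hopx (0.844), Muc4, Akr1b7, Ly6g6c and Serpinb11 in wild type. Muc4 encodes a membrane mucin of the ocular surface. For Krt16 they were Cldn4 (0.487), Cdkn1a, Lypd3, Sfn and Ifi202b in the library labelled Pax6 heterozygous, and Cldn4 (0.532), Hbegf, Cdkn1a, Sfn and Ifrd1 in wild type. Cldn4 encodes a tight junction claudin and Cdkn1a a cell cycle inhibitor. For Krt17 in the library labelled Pax6 heterozygous they were Actg1 (0.454), Cfl1, Tagln2, Krt14 and Tnfrsf12a, of which the first 3 encode actin or actin-binding proteins. None of these 5 was among those of another member. Krt14, 1 of them, is part of the sum that chose the cells and shares some 3′ windows with Krt17. Krt17 was under 50 CPM in wild type and had no such list there.

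Pax6 had the lowest coefficient with Krt17 of all 3601 genes in the library labelled Pax6 heterozygous (-0.393), a relation singled out after its value was seen. Within the marker combinations of that library with more than 400 cells it was -0.292 to -0.528. Depth moved with Pax6: in cells of all depths the median was 17882 UMIs at above 0 to 5 Pax6 UMIs per 10000 and 6094.5 at 20 or more. Among cells of 10000 to 20000 UMIs, Krt17 in the library labelled Pax6 heterozygous stood at 1632 CPM with Pax6 under 5 per 10000, 1136 CPM with 5 to 10, and 598 CPM with 10 or more. Krt16 stood at 243, 109 and 44.7 CPM in these bins. Krt6a was 399, 625 and 696 CPM over the same bins, and Krt6b was 118, 269 and 376 CPM. At this depth Krt17 and Krt16 were lower and the Krt6 pair higher in cells with more Pax6. In cells of all depths, with Pax6 at above 0 to 5, 5 to 10, 10 to 20 and 20 or more per 10000, Krt6a in the library labelled Pax6 heterozygous was 951, 1242, 936 and 493 CPM and Krt6b was 555, 682, 590 and 272 CPM, so the Krt6 pair was lowest in the last of these bins. Krt17 over these bins of all depths was 1595, 1147, 611 and 298 CPM. Wild-type cells of the same depth had Krt17 at 26.0 and 11.4 CPM and at 0 in the last bin of 113 cells, where a count of 0 allows up to 2.17 CPM. Over the wild-type bins Krt6a was 1411, 535 and 389 CPM. Wild-type Krt6b was 937, 268 and 109 CPM, and Krt16 was 606, 127 and 14.5 CPM. The Krt6 pair had opposite directions along Pax6 in the libraries at this depth, but in cells of all depths it was lower in the last bin than in the first of these bins in both libraries, with wild-type Krt6a at 2386 CPM in the first and 376 CPM in the last. Median depth still differed along the bins, at 15789, 14584.5 and 12958.5 UMIs in the library labelled Pax6 heterozygous, and its part was not tested.

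Other keratins and wound-related genes were counted in lists of genes that reached 5 CPM in 1 library or both. Over all 10661 such genes the median log2 ratio was 0.22, 16.7% passed 2-fold upwards and 6.62% passed it downwards. Of 13 partner and neighbouring keratins, 9 passed 2-fold upwards and 1 downwards (list median 2.30 on the log2 scale). The simple-epithelium keratins Krt7 (228 CPM in the library labelled Pax6 heterozygous and 3.42 CPM in wild type) and Krt8 (33.4 CPM in the library labelled Pax6 heterozygous and 1.36 CPM in wild type) had the largest ratios, 66.5 and 24.6. Krt12 was lower, at 1769 CPM in the library labelled Pax6 heterozygous and 29618 CPM in wild type. Krt5, Krt14 and Krt15 are in this list, although their sum chose the epithelial cells, so their levels are descriptions. Krt14, type I, stood at 4880 CPM in the library labelled Pax6 heterozygous and 954 CPM in wild type, a ratio of 5.12. Krt5, type II, stood at 4285 CPM in the library labelled Pax6 heterozygous and 6860 CPM in wild type, a ratio of 0.625. Krt4 had a ratio of 16.4 and Krt13 of 2.55. Of 11 wound migration genes, 5 passed 2-fold upwards and 3 downwards (list median 0.22). The matrix gene Tnc stood at 37.6 CPM in the library labelled Pax6 heterozygous and 0.225 CPM in wild type, although non-epithelial cells of the library labelled Pax6 heterozygous held 465 CPM. Fn1, encoding fibronectin, had a ratio of 0.259 and the hyaluronan receptor Cd44 a ratio of 0.384. The integrin Itga5 had a ratio of 9.30 at 7.02 CPM in the library labelled Pax6 heterozygous. Non-epithelial cells held more Itga5, at 66.7 CPM in that library and 95.2 CPM in wild type. Of 16 AP-1 and EGF receptor genes, whose products act upstream of injury-induced keratins in skin, 2 passed 2-fold upwards (the ligands Tgfa, with a ratio of 2.63, and Areg, with 2.02) and 1 downwards (the ligand Epgn, with 0.279), and the list median was -0.47.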

How the data were processed

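Each deposited matrix holds counts, raw UMIs per gene and cell barcode, made by the authors with Cell Ranger 8.0.0 per the file headers, on GRCm38 per the submitters' processing notes. The libraries held 131567589 UMIs in 10574 barcodes (labelled Pax6 heterozygous) and 124540296 in 11354 (wild type). The lowest barcode total was 500 UMIs, so barcodes had been selected before deposit. Kept cells had 500 or more genes, 1000 or more UMIs and no more than 20% of UMIs from mitochondrial genes. No doublet caller was run here, so doublets remain among the cells. UMIs were summed per library and set of cells and scaled to CPM without mitochondrially encoded genes. With 1 library per genotype no test was made, and a difference was called by size at 2-fold. Ratios have conditional binomial, levels Poisson and shares Clopper-Pearson exact 95% intervals. A count of 0 was given a floor of 3 UMIs. Non-epithelial cells had a basal keratin sum under 30 and at least 20 UMIs of vessel, Schwann and immune markers per 10000. Thinning drew UMIs without replacement. Members, markers and gene lists were chosen with earlier results of these data known, and 1 list is not reported here. Named were the members, the 5 genes most like each, and at most 4 genes past 2-fold per list with the largest or smallest ratio, beside the markers and partner keratins. Positions and transcripts were matched by Ensembl identifier to GENCODE M21. The scripts were tested on simulated data. Python 3.11.15, numpy 2.4.6, scipy 1.17.1, pandas 2.3.3, biopython 1.88, matplotlib 3.10.9 and R 4.3.3 were used, with edgeR 4.0.16 and DESeq2 1.42.0 for alternative scaling factors of the counts alone. Other alternatives changed the cell filters, the basal keratin and marker limits, the thinning depth and the cells left out.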

Additional observations from a re-analysis of the deposited data

Results flagged for a closer look

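Krt16 differed between the libraries in opposite directions in the marker combinations that both hold. Its log2 ratio of heterozygous over wild type was 0.84 in Krt12-only cells (931 CPM in the library labelled Pax6 heterozygous and 519 CPM in wild type) and -1.6 in Gpha2-only cells (60.2 CPM in the library labelled Pax6 heterozygous and 183 CPM in wild type). The difference between these log2 ratios was not tested, since each genotype has 1 library.

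Krt17 was also counted in cells outside the epithelial and the non-epithelial sets, that is, in kept cells under the basal keratin limit and without vessel, Schwann or immune markers. It stood at 27.8 CPM in 1427 such cells of the library labelled Pax6 heterozygous and at 1.61 CPM in 1364 of wild type. The same cells held 17.2 CPM of Krt6b in the library labelled Pax6 heterozygous and 558 CPM in wild type, so some wild-type cells with Krt6b lay under the basal keratin limit. Krt17 UMIs were also found in the non-epithelial cells. At 5000 UMIs, 4.86% of 884 such cells of the library labelled Pax6 heterozygous and 1.59% of 63 in wild type held Krt17. The part of free RNA or of doublets in the Krt17 levels and shares of this paragraph was not tested.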

How the results depend on the processing

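All values here are log2 ratios of heterozygous over wild type in epithelial cells unless stated. Over 16 alternatives no member changed direction. With edgeR TMM factors Krt6a was -1.06, Krt6b -1.49, Krt16 -1.17 and Krt17 5.85; with DESeq2 size factors -1.07, -1.51, -1.19 and 5.84; with TMM factors and no filter on low counts -1.23, -1.67, -1.35 and 5.68, in the same gene order. These scalings lower every log2 ratio by 0.158, 0.171 and 0.331, and list medians of 0.17 to 0.22 are smaller than the last shift. A basal keratin limit of 60 gave -1.22, -1.65, -1.33 and 5.70; for a limit of 15, and also on adding cells rich in Krt12 or Krt13, Krt6a was -0.88 and Krt16 -0.99. Xist-only heterozygous-labelled cells gave -0.66, -1.08, -0.68 and 5.86, and Y-only cells -1.19, -1.68, -1.505 and 6.17. Subtracting the level of non-epithelial cells gave -0.87, -1.31, -0.94 and 6.07. A mean over cells gave -0.73 for Krt6a, -1.15 for Krt6b and -0.94 for Krt16. Without cells with non-epithelial markers Krt6a was -0.89 and Krt16 -0.997. Leaving out cells over 30000 UMIs, 454 heterozygous-labelled and 583 wild-type and chosen after seeing the data as were the shared barcodes and the Pax6 bins, gave -0.87 for Krt6a, -1.43 for Krt6b and -0.86 for Krt16. Where Krt6a and Krt16 pass or miss 2-fold thus depends on the setting, and the cause was not tested.

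With all marker limits at 0.5 and at 2 times, Krt13-high over Krt13-low log2 ratios for Krt6a were 2.88 and 2.52 in the library labelled Pax6 heterozygous and 2.34 and 1.99 in wild type; those for Krt17 were -0.30 at 2 times in the library labelled Pax6 heterozygous, and 0.91 and 1.79 in wild type. Gpha2-high over Gpha2-low log2 ratios for Krt6a were -2.14 and -2.83 in the library labelled Pax6 heterozygous and -2.21 and -2.54 in wild type. Those for Krt17 were 0.035 and -0.23 in the library labelled Pax6 heterozygous, against -0.095 as reported, and 3.36 and 3.99 in wild type. At 2000 UMIs per cell the shares in the library labelled Pax6 heterozygous and in wild type were 36.3% and 43.2% for Krt6a, 19.2% and 28.1% for Krt6b, 13.1% and 22.4% for Krt16, and 61.8% and 2.08% for Krt17. At that depth Krt6b was found in 46.1% and 54.5% of cells with Krt6a in these libraries, and Krt17 in 59.4% and 2.25%. Without cells over 30000 UMIs, Krt6b was found in 43.8% and 54.7% of cells with Krt6a. Among library ratios, Krt6a and Krt17 splits by Krt13 and Gpha2, and epithelial and co-detection shares, 69 alternative values left their counting interval and 27 did not. Among the remaining splits and the non-epithelial shares, 45 left it and 19 did not. Some of these splits crossed 2-fold. In the library labelled Pax6 heterozygous, Krt16 by Krt4 was 0.976 at 0.5 times the limits, and Krt17 by Krt12 was -1.09 at 2 times. In wild type, Krt16 by Gpha2 was -1.23 at 2 times. No paired analysis was possible because each genotype has 1 library. Counting error weighs most on Krt17 in wild type, with 2099 UMIs over 8552 epithelial cells.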

Other observations

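Gene groups outside the keratins are described over epithelial cells by their counts and medians, read against all genes that reached 5 CPM (16.7% past 2-fold upwards, 6.62% downwards and a median log2 ratio of 0.22). Of 11 alarmin and barrier stress genes, 3 passed 2-fold upwards and 2 downwards, and the list median was 0.17. on the log2 scale Lcn2, which encodes an iron-siderophore-binding protein of innate defence, stood at 65.1 CPM in the library labelled Pax6 heterozygous and 0.270 CPM in wild type. Lcn2 in non-epithelial cells of the library labelled Pax6 heterozygous was 73.4 CPM, so its epithelial level there is no higher than in cells outside the epithelium. S100a9 had a ratio of 16.9, and the cytokines Il18 and Il1a had ratios of 0.287 and 0.342.

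Of 10 Nrf2 pathway genes, 4 passed 2-fold upwards and 0 downwards, and the list median was 0.75 on the log2 scale. Beside Nrf2 targets this list holds Nfe2l2, which encodes Nrf2, and its regulator Keap1. The cystine transporter Slc7a11 had the largest ratio, 19.4 (20.2 CPM in the library labelled Pax6 heterozygous and 1.04 CPM in wild type). Gclm, a subunit of the enzyme that starts glutathione synthesis, had the next largest (3.999). Of 5 hedgehog genes, 4 passed 2-fold upwards and 1 downwards, and the list median was 1.29. on the log2 scale The transcription factor Gli2 had a ratio of 36.1 at 14.9 CPM in the library labelled Pax6 heterozygous, where non-epithelial cells held 11.9 CPM. Smo, the signal transducer of the pathway, stood at 58.3 CPM in the library labelled Pax6 heterozygous and 5.82 CPM in wild type, and Hhip, which binds hedgehog ligands, had a ratio of 0.419. Of 8 cell cycle genes, 3 passed 2-fold upwards and 0 downwards, and the list median was 0.21 on the log2 scale, and the largest ratios were those of the replication helicase genes Mcm5 (4.66) and Mcm6 (3.09).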
